A study of Mus musculus with 8 samples.

Results

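The 10 genes described here are markers of the bile duct epithelium and keratins of simple epithelia. They are Krt8, Krt18, Krt7, Krt19, Krt20, Krt23, Sox9, Spp1, Epcam and Cldn7, each taken by its symbol from the 54532 genes listed in a deposited RNA-seq table of mouse liver. Of the 10 genes, 9 reached the minimum mean of 0.1 FPKM (reads scaled to gene length and a library size) that was needed for testing, and Krt20 did not. The study asked how loss of METTL3, the enzyme that writes m6A on mRNA, alters liver injury after ischemia and reperfusion (I/R). Both groups had 4 livers, 1 per mouse, collected when 1 h of ischemia had been followed by reperfusion for 6 h. METTL3-HKD mice carried 1 floxed Mettl3 allele (flox/-) and Alb-iCre, a Cre recombinase driven by the albumin promoter and so directed to hepatocytes, and they were heterozygous because full hepatocyte knockouts died young. METTL3-Flox littermates were flox/flox. The loxP sites flank exon 4, and the age of these mice was not given in the sources used here. No uninjured livers are in the series, so every difference below is between 2 injured groups.

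Depth was 15961479 to 18434488 reads on genes in METTL3-HKD livers and 15861245 to 17262991 in METTL3-Flox livers. The library size behind the FPKM, rebuilt from the values, was 18063236 to 20114825 in METTL3-HKD and 14210943 to 16158035 in METTL3-Flox livers. Divided by reads on genes, it was 1.01 to 1.17 and 0.840 to 1.01. Scaling to reads on genes therefore raises METTL3-HKD levels relative to METTL3-Flox levels. Mettl3 itself was at 1.17 to 1.56 FPKM in METTL3-HKD and 1.16 to 1.84 FPKM in METTL3-Flox livers (limma log2 fold change -0.16, SE 0.165, adjusted p = 0.556), a level over the whole gene that holds exons outside the floxed one and therefore did not check the labels. Hepatocyte markers summed to 23698 to 34744 FPKM in METTL3-HKD and 30567 to 35114 FPKM in METTL3-Flox livers, and METTL3-HKD replicates 1 and 2 had the 2 lowest sums. Neutrophil markers summed to 333 to 1630 FPKM in METTL3-HKD and 13.1 to 44.9 FPKM in METTL3-Flox livers, and all 8 of them were called higher, led by Csf3r (log2 fold change 3.12, adjusted p = 5.1e-04), S100a9 (4.68, adjusted p = 0.0021), Cxcr2 (4.06, adjusted p = 0.0034) and S100a8 (4.44, adjusted p = 0.0041). In bulk liver RNA, a change in the number of cells of a type and a change in RNA per cell cannot be told apart.

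Keratins form intermediate filaments from pairs of a type I and a type II chain. Adult mouse hepatocytes make a single pair, the type II keratin Krt8 and the type I keratin Krt18, whereas cholangiocytes, the cells that line the bile ducts, add the type II keratin Krt7 and the type I keratin Krt19. Cholangiocytes also carry the transcription factor Sox9, the secreted phosphoprotein osteopontin (Spp1), the adhesion molecule Epcam and the tight junction claudin Cldn7. Injured hepatocytes can take up Sox9, Spp1 and other biliary genes, and in several liver injuries the simple keratins are made in excess.

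The 6 keratin genes lie in 2 clusters of the mouse genome (GRCm38). The type II genes and Krt18 were on chromosome 15, with Krt7 (ENSMUSG00000023039) at chr15:101411043-101430313 on the plus strand, Krt8 (ENSMUSG00000049382) at chr15:101996698-102004482 on the minus strand and Krt18 (ENSMUSG00000023043) at chr15:102028180-102032027 on the plus strand. The other type I genes were on chromosome 11, all on the minus strand, with Krt20 (ENSMUSG00000035775) at chr11:99428403-99438150, Krt23 (ENSMUSG00000006777) at chr11:99477974-99493137 and Krt19 (ENSMUSG00000020911) at chr11:100140810-100148665. Krt8 and Krt18 were 23.7 kb apart and Krt20 and Krt23 39.8 kb apart, with 0 listed genes between the members of either pair. Of the other 4 genes, Cldn7 (ENSMUSG00000018569) was at chr11:69964779-69967885, Sox9 (ENSMUSG00000000567) at chr11:112782224-112787760, Spp1 (ENSMUSG00000029304) at chr5:104435118-104441050 and Epcam (ENSMUSG00000045394) at chr17:87635979-87651106, all on the plus strand.

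The promoters of both neighbouring pairs are shown because the genes of 1 pair were high in all livers at a ratio near 1, while those of the other were low and far apart in level. Each run is RefSeq sequence of GRCm38.p6, from 250 bases before to 20 bases after the start of transcription, written 5′ to 3′ on the strand of the gene, with motif matches in capitals. The windows are chr15:102004323-102004592 (minus strand) for Krt8, chr15:102027966-102028235 (plus strand) for Krt18, chr11:99438134-99438403 (minus strand) for Krt20 and chr11:99493101-99493370 (minus strand) for Krt23.
Krt8: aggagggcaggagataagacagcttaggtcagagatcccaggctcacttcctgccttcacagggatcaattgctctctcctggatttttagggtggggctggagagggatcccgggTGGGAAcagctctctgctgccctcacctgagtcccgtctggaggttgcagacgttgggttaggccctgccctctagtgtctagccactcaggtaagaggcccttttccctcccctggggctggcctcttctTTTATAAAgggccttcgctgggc
Krt18: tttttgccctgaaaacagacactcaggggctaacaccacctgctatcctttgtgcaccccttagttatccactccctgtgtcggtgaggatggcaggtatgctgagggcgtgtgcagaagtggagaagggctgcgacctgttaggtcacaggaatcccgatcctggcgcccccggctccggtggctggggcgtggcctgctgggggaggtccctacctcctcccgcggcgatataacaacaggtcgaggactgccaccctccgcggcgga
Krt20: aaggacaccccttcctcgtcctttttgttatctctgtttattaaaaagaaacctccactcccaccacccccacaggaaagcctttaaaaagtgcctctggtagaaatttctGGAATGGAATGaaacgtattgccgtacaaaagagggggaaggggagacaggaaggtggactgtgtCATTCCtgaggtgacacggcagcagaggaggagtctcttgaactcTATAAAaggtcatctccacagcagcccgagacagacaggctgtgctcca
Krt23: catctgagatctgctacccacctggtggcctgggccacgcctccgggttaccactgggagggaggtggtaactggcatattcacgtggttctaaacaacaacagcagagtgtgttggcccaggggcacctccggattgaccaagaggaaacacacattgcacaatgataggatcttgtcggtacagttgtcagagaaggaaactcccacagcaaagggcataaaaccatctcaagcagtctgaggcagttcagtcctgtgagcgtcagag

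The motifs searched on both strands were AP-1 (TGANTCA), the GC box (GGGCGG), the TATA box (TATAAA), the CCAAT box (CCAAT), an RBPJ site (TGGGAA) and a TEAD site (GGAATG), over the full windows of 300 bases of 32851 promoters. The promoters searched leave out 1 whole chromosome, which holds none of the 10 genes. RefSeq promoters were found for 8 of the 10 genes, the others being Krt19 and Sox9. The Krt8 window held TGGGAA 134 bases before the start and overlapping matches to TATAAA on both strands at the start. The Krt20 window held TATAAA 29 bases before the start and GGAATG at 139, 134 and 74 bases before it, the first 2 overlapping. The Krt18 and Krt23 windows held none of the 6 motifs. Over the 8 genes, AP-1 was found in 0 (7.81% of the promoters searched), the GC box in 3 (35.7%; Krt7, Epcam and Cldn7), the TATA box in 3 (13.6%; Krt8, Krt20 and Spp1), CCAAT in 1 (37.4%; Spp1), the RBPJ site in 2 (25.6%; Krt8 and Cldn7) and the TEAD site in 2 (14.7%; Krt20 and Cldn7). The percentages are per promoter, whereas a gene was counted if any of its windows matched, and Spp1 and Cldn7 had 2 windows each. These matches describe letters in a window and not binding.

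Of the 9 genes tested between METTL3-HKD and METTL3-Flox livers after I/R, 6 were called higher (adjusted p below 0.05 with a log2 fold change of 1 or more), namely Krt7, Krt19, Krt23, Sox9, Spp1 and Cldn7, and 0 lower. Over all 16645 genes tested, 4.70% were called higher and 1.52% lower (782 and 253 genes). Scaling to reads on genes changed that split to 1043 and 133 genes and moved the median of all genes to 0.20, and all 9 genes then passed the adjusted p. The log2 fold change was positive for all 9 genes, with a median of 1.38, beside a median of -0.0028 over all genes tested. In 5 of the 9 genes every METTL3-HKD liver was above every METTL3-Flox liver, which held for 12.7% of all genes tested, and in 0 was every METTL3-HKD liver below, which held for 9.95%. Krt8, Krt18 and Epcam did not pass the adjusted p. Cldn7 had a METTL3-Flox mean of 0.0980 FPKM and so entered the test through its level in METTL3-HKD livers. The plot of levels by liver shows all 10 genes.

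**Figure D1:**
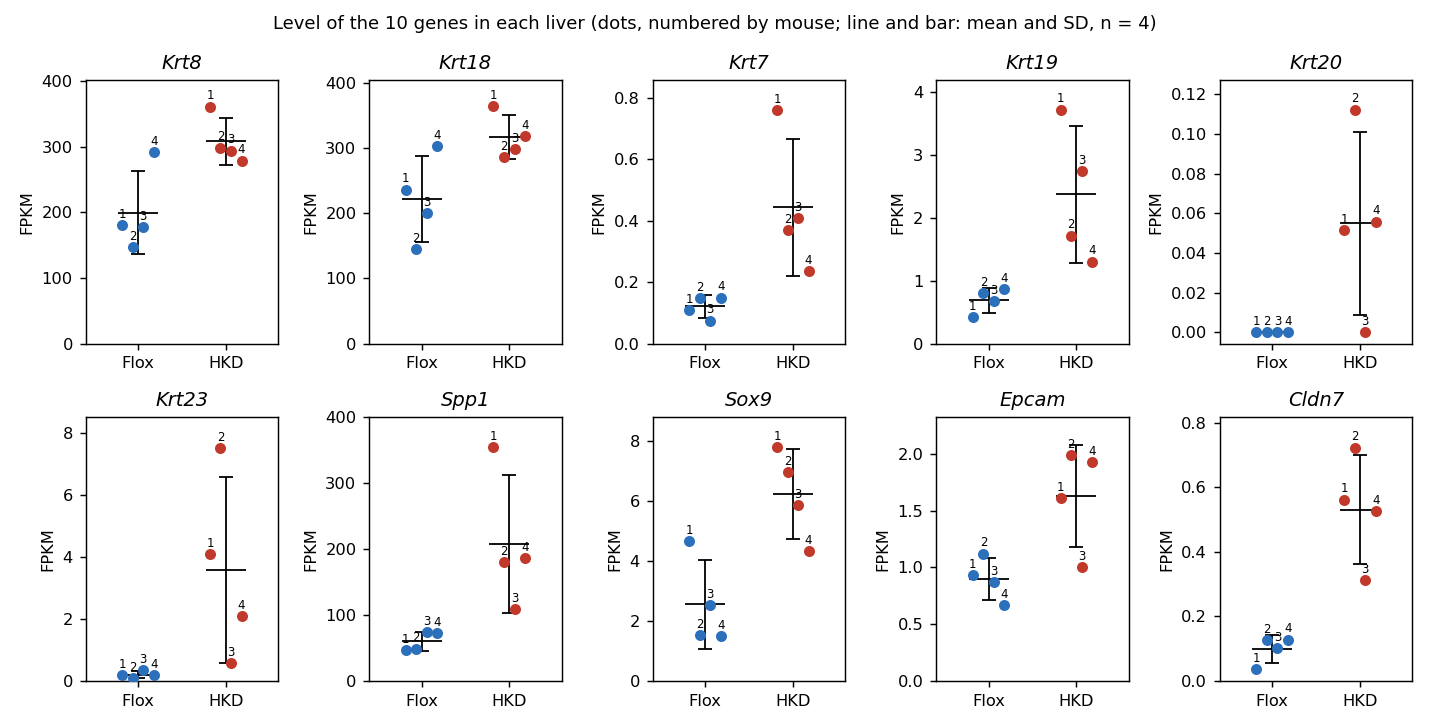
Level of each of the 10 genes in FPKM (vertical axes, 1 scale per gene, linear) in the 4 METTL3-Flox livers (blue) and the 4 METTL3-HKD livers (red). Dots are livers with their replicate number, and the line and bar are the group mean and SD. The groups do not overlap for Krt7, Krt19, Krt23, Spp1 and Cldn7, and Krt20 is at 0 in all METTL3-Flox livers.

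Krt8 and Krt18, the hepatocyte pair, were by far the most abundant keratins. In the order of the replicate numbers, Krt8 was at 361, 299, 294 and 279 FPKM in METTL3-HKD livers and at 181, 147, 177 and 291 FPKM in METTL3-Flox livers. Krt18 was at 364, 286, 298 and 318 FPKM in METTL3-HKD livers and at 236, 145, 200.5 and 303 FPKM in METTL3-Flox livers. For both genes METTL3-Flox replicate 4 lay within the METTL3-HKD range and the other METTL3-Flox livers below it. The Krt8 mean was 308 ± 36.2 (SD, n = 4) against 199 ± 63.2 FPKM, a log2 fold change of 0.67 (SE 0.202, 95% interval 0.22 to 1.13, limma adjusted p = 0.0532). The Krt18 mean was 316 ± 34.1 against 221 ± 66.1 FPKM, a log2 fold change of 0.56 (SE 0.209, 95% interval 0.09 to 1.03, limma adjusted p = 0.101). Without METTL3-Flox replicate 4, both passed the adjusted p, with Krt8 at a log2 fold change of 0.87 (adjusted p = 0.0173) and Krt18 at 0.73 (adjusted p = 0.0477). Without any other single liver neither passed, with limma adjusted p of 0.0767 to 0.132 for Krt8 and 0.116 to 0.221 for Krt18.

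The ratio of the 2 partner chains stayed near 1 in every liver. Krt18 divided by Krt8 was 1.01, 0.957, 1.01 and 1.14 in METTL3-HKD livers and 1.30, 0.987, 1.13 and 1.04 in METTL3-Flox livers. The mean log2 ratio differed by -0.11 between the groups (exact permutation test, two-sided, p = 0.343), which the spread between livers covered. A processed pseudogene on chromosome 7, Krt8-ps, took 13 to 32 reads in METTL3-HKD and 6 to 15 in METTL3-Flox livers, beside 10150 to 14218 and 4656 to 9177 reads on Krt8.

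Krt7 and Krt19, the keratins that cholangiocytes add, were both called higher at levels far below the hepatocyte pair. Krt19 was at 3.73, 1.72, 2.75 and 1.31 FPKM in METTL3-HKD livers and at 0.417, 0.801, 0.674 and 0.871 FPKM in METTL3-Flox livers. The groups did not overlap, and METTL3-HKD replicate 1 was the highest and replicate 4 the lowest of its group. The Krt19 mean was 2.37 ± 1.09 against 0.691 ± 0.200 FPKM, a log2 fold change of 1.58 (SE 0.329, 95% interval 0.83 to 2.32, limma adjusted p = 0.0167). The exact permutation test gave p = 0.0286, the smallest that 4 against 4 allows. With a pseudocount of 1 FPKM the log2 fold change was 0.95, just under the threshold of 1. These values rest on 45 to 139 reads in METTL3-HKD and 11 to 26 in METTL3-Flox livers.

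Krt7 was at 0.762, 0.368, 0.408 and 0.237 FPKM in METTL3-HKD livers and at 0.110, 0.149, 0.0747 and 0.150 FPKM in METTL3-Flox livers. METTL3-HKD replicate 1 was again the highest and replicate 4 the lowest of its group, still above all METTL3-Flox livers. The Krt7 mean was 0.444 ± 0.224 against 0.121 ± 0.0361 FPKM, a log2 fold change of 1.23 (SE 0.321, 95% interval 0.50 to 1.96, limma adjusted p = 0.0347). With 31 to 108 reads in METTL3-HKD and 8 to 17 in METTL3-Flox livers, this was the least stable of the 6 calls. Leaving out a single liver ended it for every liver but METTL3-HKD replicate 4, with adjusted p from 0.0554 to 0.0879 for the other 7, and so did a pseudocount of 1 FPKM (adjusted p = 0.0565).

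Krt7 and Krt19 are also made by mesothelial cells, which cover the liver surface. The 8 mesothelial markers summed to 9.11, 5.10, 6.37 and 2.29 FPKM in METTL3-HKD livers and to 1.56, 2.19, 1.40 and 2.23 FPKM in METTL3-Flox livers. Ranked from high to low, the 8 livers stood in the same order for this sum as for Krt7, and the 4 METTL3-HKD livers in the same order as for Krt19, a likeness of ranks noticed after the values were seen. Within that order METTL3-Flox replicates 4 and 2 were nearly tied for Krt7, at 17 reads each (0.150 and 0.149 FPKM). Of the 6 mesothelial markers tested, 3 were called higher, namely Upk1b (log2 fold change 1.78, adjusted p = 0.0169), Lrrn4 (1.40, adjusted p = 0.0293) and Upk3b (1.52, adjusted p = 0.0428), while Gpm6a was at 0.87 (adjusted p = 0.0792). The count fell to 1 without METTL3-HKD replicate 1 or 2 or any 1 of the METTL3-Flox livers, and was 5 without METTL3-HKD replicate 4. It was 0 when the pseudocount or the minimum was raised to 1 FPKM. The part of mesothelial RNA in the Krt7 and Krt19 differences was not tested.

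Krt23, a type I keratin that is induced in stressed and injured liver, had the highest fold change of the 9 genes tested. It was at 4.10, 7.50, 0.566 and 2.10 FPKM in METTL3-HKD livers and at 0.180, 0.0791, 0.336 and 0.198 FPKM in METTL3-Flox livers. The groups did not overlap, although METTL3-HKD replicate 3 was close to METTL3-Flox replicate 3. The Krt23 mean was 3.57 ± 3.0 against 0.198 ± 0.106 FPKM, a log2 fold change of 3.20 (SE 0.663, 95% interval 1.70 to 4.70, limma adjusted p = 0.0163), from 16 to 217 reads in METTL3-HKD and 2 to 8 in METTL3-Flox livers. The fold change ranged from 2.69 without METTL3-HKD replicate 2 to 3.86 without METTL3-HKD replicate 3, and stayed past the adjusted p without any 1 liver. A voom fit on rebuilt reads gave 3.67 with an adjusted p of 0.0606.

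Its neighbour Krt20, a keratin of gut and bladder epithelium, was barely detected. It had 2, 4, 0 and 2 reads in METTL3-HKD livers and 0 in all 4 METTL3-Flox livers. A count of 0 allows up to 3 reads, which is 0.0964 to 0.110 FPKM in METTL3-Flox livers, about the level of the highest METTL3-HKD liver (0.112 FPKM). No fold is given, and a difference was not detectable at this depth (exact permutation test of FPKM, p = 0.143).

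Squamous epithelium, another source of keratins, was followed by its own markers. The 9 stratified squamous markers summed to 13.9, 19.3, 2.93 and 11.4 FPKM in METTL3-HKD livers and to 1.10 to 1.34 FPKM in METTL3-Flox livers. Lor, a protein of the cornified envelope, made up most of the sum in METTL3-HKD livers but not in METTL3-Flox livers (1.80 to 18.1 against 0.370 to 0.591 FPKM, log2 fold change 3.79, adjusted p = 0.0073). The 4 METTL3-HKD livers stood in the same order for this sum as for Krt23 and for Cldn7, with replicate 2 highest and replicate 3 lowest, which was noticed after the values were seen, whereas the METTL3-Flox livers stood in another order for both genes. Of the 4 squamous markers tested, Lor alone was called. Krt5, the basal keratin, had 22, 22, 0 and 17 reads in METTL3-HKD livers and 0 in all METTL3-Flox livers (adjusted p = 0.0576). Its partner Krt14 had 46, 1, 18 and 11 reads against 0, 1, 6 and 2 (adjusted p = 0.162), Krt10 had an adjusted p of 0.247, and Krt1, Krt15 and Dsg1a were at 0 in all 8 livers. The part of squamous RNA in the Krt23 and Cldn7 differences was not tested.

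Spp1 encodes osteopontin, a secreted ligand of integrins and Cd44 that bile duct cells make, as do activated macrophages. It was at 355, 181, 109 and 186 FPKM in METTL3-HKD livers and at 46.4, 49.1, 73.5 and 72.3 FPKM in METTL3-Flox livers. All METTL3-HKD livers were above all METTL3-Flox livers, with replicate 1 highest and replicate 3 lowest. The Spp1 mean was 208 ± 104 against 60.3 ± 14.6 FPKM, a log2 fold change of 1.68 (SE 0.328, 95% interval 0.94 to 2.43, limma adjusted p = 0.0136). The call held in all 16 alternative settings, with adjusted p of at most 0.0421. An overlapping gene on the same strand, Gm42793, shares 309 exonic bases with Spp1 and had 0 to 15 reads, beside 1086 to 11769 on Spp1.

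Markers of neutrophils and macrophages were measured beside Spp1. The 4 METTL3-HKD livers stood in the same order for the summed neutrophil markers as for Spp1, and the METTL3-Flox livers stood in the reverse order. The likeness of ranks in METTL3-HKD livers was noticed after the values were seen. Macrophage markers summed to 158 to 352 FPKM in METTL3-HKD and 225 to 437 FPKM in METTL3-Flox livers, which overlapped. For this sum the livers of neither group stood in the order they had for Spp1. The sum adds markers that were higher to markers that were lower. Of 12 macrophage markers, the monocyte receptor Ccr2 was called higher (log2 fold change 2.26, adjusted p = 0.0068), and 4 were lower by the adjusted p, of which 3 were called. These 4 mark resident Kupffer cells, namely Vsig4 (log2 fold change -0.96, adjusted p = 0.0291), Cd5l (-1.37, adjusted p = 0.0302), Timd4 (-1.30, adjusted p = 0.0303) and, chosen after its value was seen, Clec4f (-1.31, adjusted p = 0.0337). Their part in the Spp1 difference was not tested.

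Of the 9 osteopontin receptor genes tested, 2 were called higher. They were Itgav, the integrin alpha V chain (5.90 ± 1.31 against 2.75 ± 0.479 FPKM, log2 fold change 1.06, adjusted p = 0.0102), and Cd44 (9.36 ± 6.20 against 2.48 ± 0.341 FPKM, log2 fold change 1.69, adjusted p = 0.0179). By the adjusted p, whatever the fold, 3 in all were higher and 1 lower (9.05% and 6.63% of all genes tested), the others being Itgb1 (log2 fold change 0.49, adjusted p = 0.0271) and Itgb5 (-0.31, adjusted p = 0.0305). The count called fell to 1 without METTL3-HKD replicate 1 or 2 or METTL3-Flox replicate 1.

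Sox9, the transcription factor that marks duct cells and hepatocytes turning towards a biliary state, was at 7.80, 6.95, 5.86 and 4.32 FPKM in METTL3-HKD livers and at 4.65, 1.53, 2.51 and 1.50 FPKM in METTL3-Flox livers. The groups overlapped by 1 liver, since METTL3-Flox replicate 1 was above METTL3-HKD replicate 4. The Sox9 mean was 6.23 ± 1.50 against 2.55 ± 1.48 FPKM, a log2 fold change of 1.38 (SE 0.345, 95% interval 0.60 to 2.16, limma adjusted p = 0.0305). Without METTL3-Flox replicate 1 it was 1.71 (adjusted p = 0.0101). The call was lost without METTL3-HKD replicate 1 (adjusted p = 0.0832) or 2 (0.0740) and without METTL3-Flox replicate 2 (0.0759), 3 (0.0684) or 4 (0.0735).

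Epcam, an adhesion molecule of duct and progenitor cells, was at 1.61, 1.99, 1.00 and 1.93 FPKM in METTL3-HKD livers and at 0.931, 1.12, 0.871 and 0.670 FPKM in METTL3-Flox livers. METTL3-HKD replicate 3 lay within the METTL3-Flox range and the other 3 above it. The Epcam mean was 1.63 ± 0.450 against 0.899 ± 0.186 FPKM, a log2 fold change of 0.77 (SE 0.233, 95% interval 0.24 to 1.30, limma adjusted p = 0.0547). Without METTL3-HKD replicate 3 it was 0.97 (adjusted p = 0.0138). Leaving out any other single liver gave limma adjusted p of 0.0670 to 0.132.

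Cldn7, a claudin of duct and other epithelial tight junctions, was low in all livers and did not overlap between the groups. It was at 0.561, 0.722, 0.313 and 0.525 FPKM in METTL3-HKD livers and at 0.0361, 0.127, 0.101 and 0.128 FPKM in METTL3-Flox livers, which is 11 to 26 reads against 1 to 4. The log2 fold change was 1.66 (SE 0.297, 95% interval 0.99 to 2.33, limma adjusted p = 0.0108). It stayed past the adjusted p in the 15 alternatives that tested it, with values of at most 0.0329. With a pseudocount of 1 FPKM its log2 fold change was 0.47, which ended the call. The plot of fold changes sets the 9 genes side by side.

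**Figure D2:**
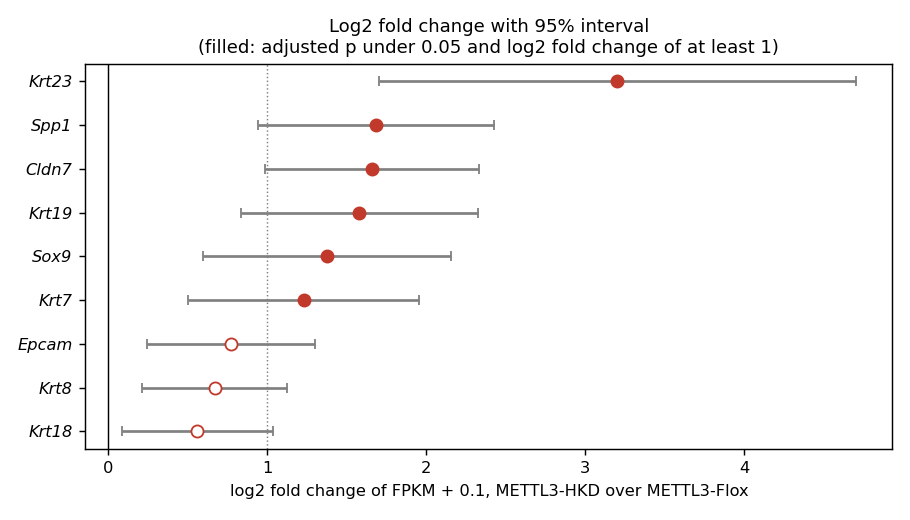
Log2 fold change of FPKM + 0.1 between METTL3-HKD and METTL3-Flox livers (horizontal axis, n = 4 per group) for the 9 genes tested, with 95% intervals from limma. Filled points passed the adjusted p at a log2 fold change of 1 or more (dotted line), and the open points are Epcam, Krt8 and Krt18. All intervals lie above 0, and that of Krt23 reaches from 1.70 to 4.70.

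In levels, the 10 genes fell into 2 tiers. In METTL3-Flox livers Krt18, Krt8 and Spp1 led, followed by Sox9 (2.55 FPKM), Epcam, Krt19, Krt23, Krt7, Cldn7 and Krt20. Neighbours whose ranges overlapped in that order were Krt18 with Krt8, Epcam with Krt19, Krt23 with Krt7 and Krt7 with Cldn7. In METTL3-HKD livers the first 4 kept their places, Krt23 and Krt19 stood above Epcam, and Cldn7 stood above Krt7. Neighbours there overlapped in range except Spp1 with Sox9, Epcam with Cldn7 and Krt7 with Krt20.

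The genes were also set against Krt8 within each liver. The mean log2 ratio to Krt8 in METTL3-HKD livers minus that in METTL3-Flox livers was 3.14 for Krt23, 1.86 for Cldn7, 1.13 for Krt7, 1.05 for Krt19, 1.01 for Spp1, 0.75 for Sox9 and 0.16 for Epcam. The groups did not overlap for Krt23 and Cldn7 (exact permutation test, p = 0.0286 for both). Over the 8 ratios, Krt18 included, none had a Benjamini-Hochberg adjusted p under 0.05, and the lowest was 0.0914 (exact permutation tests). With 0.1 FPKM added to both genes, the differences for Cldn7 and Krt7 were 0.99 and 0.56.

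The makeup of the keratin pool was computed from the same values. Over the 50 keratin genes listed, summed FPKM was 633 ± 69.5 in METTL3-HKD and 422 ± 127 in METTL3-Flox livers (n = 4 each, exact permutation test, p = 0.0571). Krt7, Krt19 and Krt23 together took 0.604% to 1.61% of the sum in METTL3-HKD livers and 0.169% to 0.350% in METTL3-Flox livers, with no overlap (1.00% ± 0.482 against 0.252% ± 0.0813, n = 4 each, exact permutation test, p = 0.0286). Each of these keratins was called higher on the same values, so the share repeats those calls and is no separate test. Krt8 and Krt18 still made up 98.6% ± 0.544 and 99.5% ± 0.131 of the summed keratin FPKM. Of the 44 other keratin genes 30 were at 0 in all livers and 4 were tested. Krt80 was called higher (0.317 ± 0.104 against 0.0696 ± 0.0361 FPKM, log2 fold change 1.29, adjusted p = 0.0230), having entered the test through METTL3-HKD livers, since its METTL3-Flox mean was below the minimum. The number of these 4 genes called was 0 without METTL3-HKD replicate 1 or METTL3-Flox replicate 3 or 4, and 2 without METTL3-HKD replicate 3.

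Most of the other cholangiocyte markers did not pass the adjusted p. Of 22 tested, 5 were called higher and 0 lower (4.70% and 1.52% of all genes tested), with a median log2 fold change of 0.28. Those that rose included the surface protein Cd24a (5.78 ± 3.55 against 0.937 ± 0.341 FPKM, log2 fold change 2.40, adjusted p = 0.0074), the membrane linker Ezr (8.45 ± 3.86 against 2.36 ± 0.411 FPKM, 1.70, adjusted p = 0.0099) and Tspan8 (1.64, adjusted p = 0.0227). The summed level of the whole list was 177 to 196 FPKM in METTL3-HKD and 182 to 198 FPKM in METTL3-Flox livers, which overlapped. Cldn3 (65.1 ± 14.1 against 85.8 ± 7.49 FPKM) and Aqp1 (52.2 ± 8.83 against 42.6 ± 5.81 FPKM) were the largest parts of this sum. The overlap therefore says little about the low markers. The chloride channel Cftr had 0 to 6 reads and the secretin receptor Sctr 0 to 7 reads per liver, both below the minimum. The count called was 2 without METTL3-HKD replicate 1 or 2 or METTL3-Flox replicate 3, and 3 without METTL3-HKD replicate 4 or METTL3-Flox replicate 4.

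Genes of biliary fate, Notch and YAP signalling include regulators of Sox9 and targets of the YAP and TEAD complex. Of 20 tested, 6 were called higher and 0 lower, 9 in all were higher by the adjusted p, and the median log2 fold change was 0.56. The YAP targets Cyr61 (18.3 ± 6.05 against 2.39 ± 0.884 FPKM, log2 fold change 2.90, adjusted p = 0.0021), Ankrd1 (1.90 ± 1.47 against 0.0846 ± 0.0982 FPKM, 3.30, adjusted p = 0.0076) and Ctgf (5.63 ± 2.69 against 1.94 ± 0.634 FPKM, 1.43, adjusted p = 0.0261) rose, and so did Rbpj, the DNA-binding partner of Notch (0.88, adjusted p = 0.0136). Ankrd1 had a METTL3-Flox mean below the minimum and entered the test through METTL3-HKD livers. The count called was 2 without METTL3-HKD replicate 1 or METTL3-Flox replicate 4, and 3 without METTL3-HKD replicate 2 or 4 or METTL3-Flox replicate 1, 2 or 3.

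Genes that keratins bind were mostly below the thresholds. Of 13 linker and desmosome genes tested, 0 were called, and by the adjusted p alone 2 were higher, the plakophilin Pkp2 (log2 fold change 0.47, adjusted p = 0.0326) and the cytoskeletal linker Dst (0.67, adjusted p = 0.0427), and 1 was lower, Pkp4 (-0.69, adjusted p = 0.0309). Eppk1, which binds keratin filaments, was at -0.79 (adjusted p = 0.0719). Of the 7 genes tied to keratin aggregates, 2 were called higher, the small heat shock proteins Hspb1 (241 ± 104 against 22.8 ± 10.2 FPKM, log2 fold change 3.40, adjusted p = 0.0021) and Cryab (1.66, adjusted p = 0.0074). Tgm2, a transglutaminase that crosslinks keratins, rose by less (0.92, adjusted p = 0.0082), and Nbr1 was at -0.25 (adjusted p = 0.0668).

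Tight junction genes and the other claudins set Cldn7 in context. Of 9 tight junction genes tested, 0 were called. Among those passing the adjusted p alone was Lsr, a tricellular junction protein that was lower (39.2 ± 4.55 against 57.8 ± 5.49 FPKM, log2 fold change -0.56, adjusted p = 0.0147), while F11r was at 0.25 (adjusted p = 0.103) and Ocln at -0.48 (adjusted p = 0.124). Of the 9 other claudins tested, Cldn4 was called higher (0.636 ± 0.471 against 0.0642 ± 0.0391 FPKM, log2 fold change 1.89, adjusted p = 0.0479), and it too entered the test through METTL3-HKD livers. The number of other claudins called was 1 without METTL3-HKD replicate 3 and 0 without each of the other 7 livers. Cldn2 was higher by the adjusted p alone (46.6 ± 6.25 against 34.5 ± 2.65 FPKM, 0.43, adjusted p = 0.0402). Cldn14 was at 0.77 (adjusted p = 0.0534) and Cldn3, the most abundant of these 4, at -0.42 (adjusted p = 0.110). Of 12 hepatocyte markers, 0 were called and Hnf4a was lower by the adjusted p alone (-0.48, adjusted p = 0.0187), while Asgr1, Cps1 and Cyp2e1 had adjusted p of 0.127, 0.177 and 0.196.

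**Figure D3:**
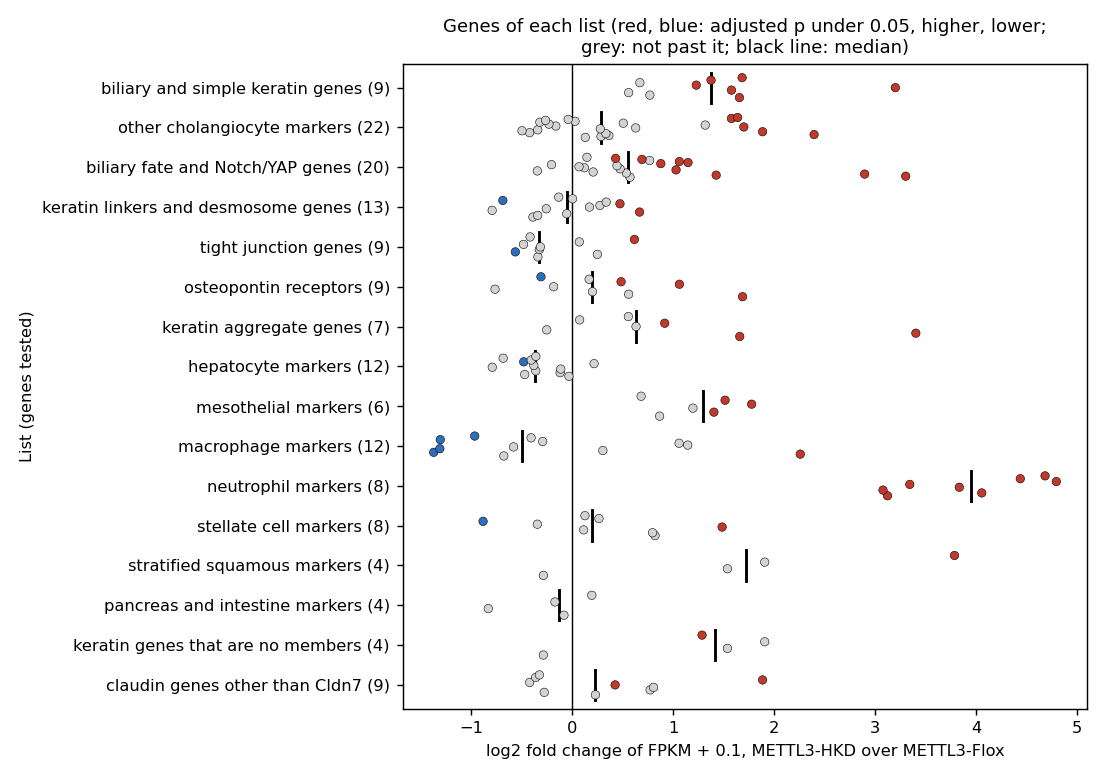
Log2 fold change of FPKM + 0.1 (horizontal axis) of every tested gene in each list (vertical axis, number tested in brackets), with red and blue for genes past the adjusted p and higher or lower in METTL3-HKD livers, grey for the rest, and a black line at the median. The 9 biliary and simple keratin genes all lie above 0 with a median of 1.38, the other cholangiocyte markers have a median of 0.28, and the neutrophil markers one of 3.95.

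The last comparison is of pattern within the groups. After the group means were subtracted, log2 levels over the 8 livers were correlated with those of 9798 protein-coding genes, as a description of libraries that share depth and handling. Taking the highest of 9798 correlations over 8 livers yields high values by itself, so the genes named are not read as partners. The closest genes were Nsf, Zfp518a and Heatr6 for Krt8 (Pearson's r 0.977, 0.961 and 0.960), Safb, 6430548M08Rik and Shkbp1 for Krt18 (0.985, 0.978 and 0.965), Appl2, Wipf2 and Swap70 for Krt19 (0.972, 0.943 and 0.929), and Zfp263, Arhgap17 and Mgat4b for Krt23 (0.978, 0.976 and 0.975). For Sox9 they were Elof1, Zfp27 and Pfn2 (0.976, 0.973 and 0.973), for Spp1 Syk, Gnas and Tor4a (0.972, 0.971 and 0.971), and for Epcam Immp2l, 1700001C19Rik and Aldh18a1 (0.925, 0.920 and 0.919). Krt7, Cldn7 and Krt20 had means below 1 FPKM and were left out of this comparison, and none of the genes compared was among the 3 closest to another.

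**Figure D4:**
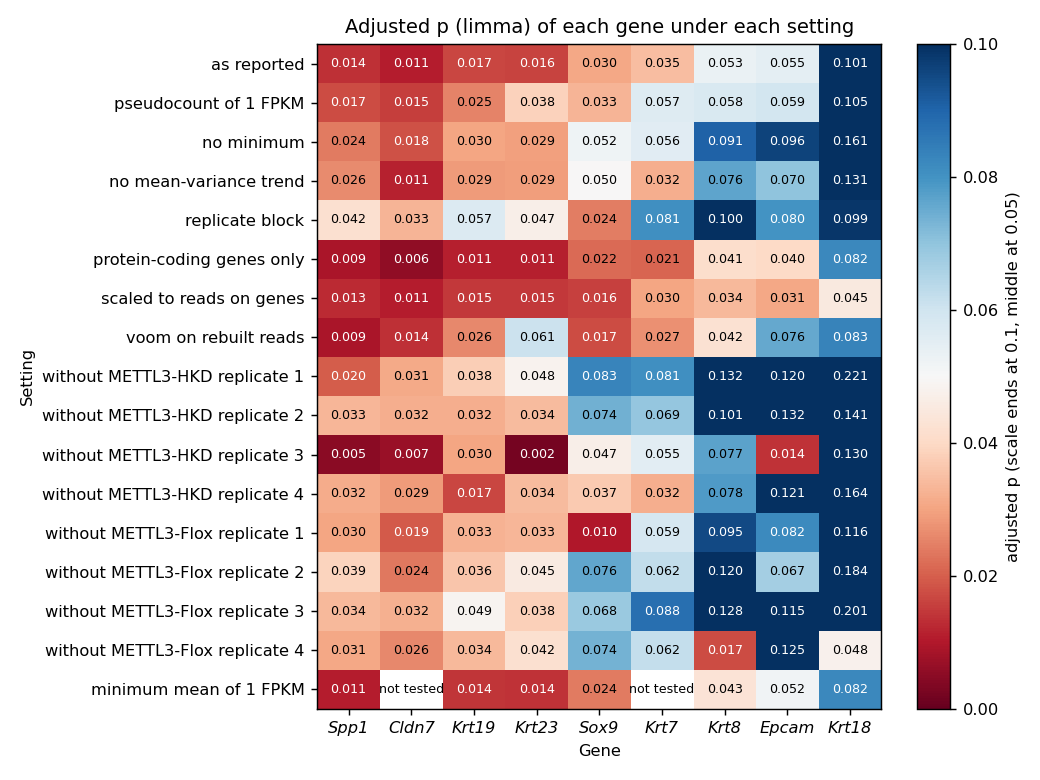
Adjusted p from limma (colour and number in each cell, red below and blue above 0.05, colour scale ending at 0.1) for each tested gene (horizontal axis) under the reported fit and 16 alternatives (vertical axis). Spp1 and Cldn7 are below 0.05 wherever tested, Krt19 and Krt23 rise above it in 1 alternative each, Sox9 in 6 and Krt7 in 10, and Krt8, Epcam and Krt18 fall below it in 5, 3 and 2.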

How the data were processed

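Livers of 4 METTL3-HKD and 4 METTL3-Flox mice were profiled by RNA-seq from RNeasy RNA with SMARTER mRNA-Seq libraries. The authors deposited 1 table of FPKM per gene and liver. GRCm38 (mm10) is named in the submitters' processing notes, while the aligner, the counter and strand use were not given in the sources used here, so antisense reads cannot be told apart. No batch is labelled. Multiplying FPKM by gene length and library size gave whole reads (tolerance 0.05), used for depth, counts of reads and one alternative. For the 16645 genes whose mean reached 0.1 FPKM, log2(FPKM + 0.1) was tested with limma 3.58.1 (R 4.3.3, trend on), and p-values were adjusted over all of them by Benjamini-Hochberg. Fold changes on this scale understate those of low genes. A call needed an adjusted p below 0.05 with a log2 fold change of 1 or more, the thresholds of the study's methods. Single values were compared by two-sided exact permutation tests over 70 arrangements (scipy 1.17.1). Labels give 1 mouse per sample. The 10 genes and all lists were chosen with earlier results of these data known. Of each list, the 4 genes with the smallest adjusted p and absent defining markers were named, except for 2 genes that are not reported here. Promoter sequences came from RefSeq (GRCm38.p6), and transcripts from GENCODE.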

Additional observations from a re-analysis of the deposited data

How the results depend on the processing

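Of 142 refitted adjusted p values of the 9 genes, over 8 fits that left out 1 liver each and 8 other settings, 114 stayed on their side of 0.05, 18 lost it, 10 gained it and 0 reversed direction. Of the 10 genes, 6 were called as reported, 3 with a pseudocount of 1 FPKM, and 4 to 6 when 1 liver was left out. A pseudocount of 1 FPKM also gave 317 genes called higher and 88 lower over the whole table, against 782 and 253; scaling to reads on genes gave 1043 and 133. Replicate numbers did not pair the livers (same-number correlations 0.14, -0.16, -0.0426 and -0.104, with the own number best for 1 of 4); the replicate block left 4 of the 10 genes called (616 higher and 200 lower over all genes), without Krt7 (adjusted p = 0.0806) and Krt19 (0.0567), and 0 of the mesothelial markers. Krt7 and Cldn7 were not tested at a minimum mean of 1 FPKM. The cause of these losses was not tested. Depth limits Krt20, Krt7, Epcam and Cldn7, which had at most 108 reads in any liver. It also limits Krt23 and Krt19, which had 2 to 8 and 11 to 26 reads in METTL3-Flox livers. Intervals come from the spread between livers, and the floor of 3 reads covers counting error only.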

Other observations

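The core m6A sequence GGACT was counted in the first-numbered coding transcript of each gene, since the enzyme altered in these mice writes that mark. It occurred in 9 of the 10 genes, beside 84.4% of 21880 coding genes. Krt18 held 4 copies (2.78 per kb), Krt8 4 (2.04 per kb), Spp1 3 (2.13 per kb) and Krt19 3 (1.90 per kb), beside a median of 1.03 per kb over all genes. In all, 5 of the 10 genes were above that median, while Epcam (0.98 per kb), Krt7 (0.733 per kb), Sox9 (0.726 per kb), Krt23 (0.639 per kb) and Cldn7 (0) were below it. The mark itself was not measured here.

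Markers of 2 further sources were counted. Of 8 stellate cell markers, Lrat, the retinol esterifying enzyme of quiescent stellate cells, was lower by the adjusted p alone (limma log2 fold change -0.88, adjusted p = 0.0265) and Des was called higher (1.49, adjusted p = 0.0491), while Col1a1 and Col3a1 had adjusted p of 0.156 and 0.257. The count called was 1 without METTL3-HKD replicate 2 or 4 and 0 without each of the other 6 livers. Of 11 pancreas and intestine markers 4 were tested and 0 were called (Cela2a, Fabp2, Lgals4 and Cela1, adjusted p from 0.0803 to 0.843), and Cdx2, the intestinal transcription factor, was at 0 in all livers.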
